A study of Mus musculus with 6 samples.

Results

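The genes described here make, break down, bind and read retinoic acid, and they were followed in the uterus of ovariectomized mice with and without P4, the usual abbreviation of progesterone. The group comprises the breakdown enzymes Cyp26a1 and Cyp26b1, the synthesis enzymes Rdh10, Aldh1a1, Aldh1a2 and Aldh1a3, the reductase Dhrs3, the binding protein Crabp2 and the receptor Rarb. A gene was included where a probe set, the group of probes that reads 1 transcript, was annotated with that symbol alone. All 9 genes were found, on 12 probe sets, among 18193 genes measured, and where a gene had several, the one brightest on average across the 6 arrays stands for it.

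Total RNA of uterine horns was measured on 6 Affymetrix mouse arrays, 3 from females given P4 and 3 from females given oil, a usual carrier of steroid hormones. All were ovariectomized females aged 8 weeks on a mixed strain background, and the genotype of both groups was GATA2 f/f, the usual sign of a homozygous floxed gene. Neither a recombinase nor a dose or time of treatment is given. Nothing states that the arrays of a group represent different animals, and the p-values below therefore rest on a spread between samples that could be technical. Values are deposited linear intensities, given as mean ± SD of 3 arrays. Log2 fold changes of P4 over oil are ± SE and were computed on log2(intensity + 16), a scale that understates changes of dim genes.

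Retinoic acid is made from retinol in successive oxidations. Retinol dehydrogenases such as Rdh10 produce retinaldehyde, Dhrs3 can turn it back into retinol, and the Aldh1a enzymes oxidise it irreversibly to retinoic acid. Crabp2 carries retinoic acid to nuclear receptors such as Rarb, and the Cyp26 enzymes oxidise it for removal. In the mouse uterus retinoic acid signalling has been tied to the preparation of the endometrium for the embryo, and Cyp26a1 is known as a gene of the uterine epithelium around implantation.

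The treatment could be read in the transcript of the progesterone receptor, Pgr, which had intensities of 2127, 1974 and 2192 after P4, against 4124, 3849 and 3472 after oil (log2 fold change -0.86 ± 0.08, limma adjusted p 0.00124). Array medians ran from 117 to 123. Most markers of uterine stroma, epithelium and smooth muscle were bright on every array, among them Pdgfra (3792 to 4771), Krt8 (1779 to 3946) and Acta2 (15323 to 16900.5). In the epithelial list Prss28 (29.4 to 42.9) and Prss29 (105.5 to 152) were dim. Leukocyte and granulocyte markers varied strongly between arrays of the same group. The summed intensity of 5 granulocyte markers was 504, 7220.4 and 15648 on P4 replicates 1 to 3, against 559, 692 and 11228 on oil replicates 1 to 3. P4 replicates 2 and 3 and oil replicate 3 thus stood apart from the other arrays in this list, of which Ltf is also a gene of the uterine epithelium. As a gauge of unspecific signal, 4 probe sets of the Y-linked genes Eif2s3y, Kdm5d, Uty and Usp9y, which have no template in females, read 22.5 to 75.5, while that of Sry read 233 to 375.

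Within both the Cyp26 and the Aldh1a enzymes, changes ran in opposite directions. Cyp26a1 and Aldh1a2 were higher after P4 and Cyp26b1 and Aldh1a3 were lower, so 4 of 9 genes passed a limma adjusted p of 0.05. Over all genes tested, 13.0% passed that threshold (6.08% higher and 6.94% lower). The median log2 fold change was -0.06 over the 9 genes and -0.01 over all genes. In 7 of the 9 genes, all but Aldh1a1 and Dhrs3, the 3 P4 arrays lay on one side of the 3 oil arrays, as they did in 31.8% of all genes. In 3 of them P4 was above oil (14.3% of all genes) and in 4 below (17.5%). An unadjusted p under 0.05 was found in 7 of the 9, against 26.6% of all genes. Taken as single probe sets, 2 of the 12 were called higher and 2 lower, against 4.13% higher and 4.49% lower (8.62% in all) of the 45037 probe sets tested. The genes were chosen with results of these arrays known, so these shares carry no test.

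**Figure D1:**
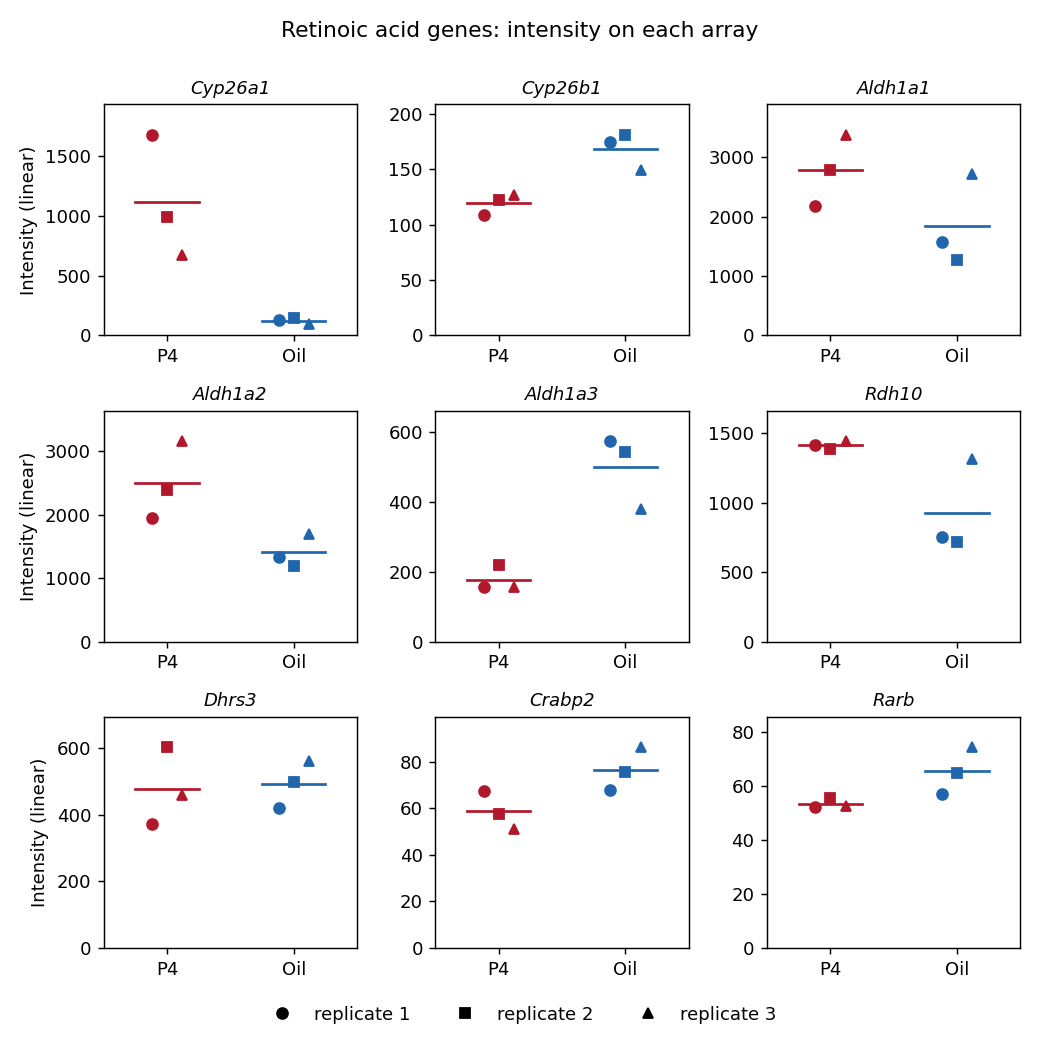
Intensity (linear axis from 0, own scale per gene) of each retinoic acid gene on the 3 P4 arrays (red, left) and the 3 oil arrays (blue, right), with a line at each group mean and 1 symbol per replicate number. The P4 arrays lie apart from the oil arrays for Cyp26a1 (676 to 1684 against 92 to 147) and Aldh1a3 (156 to 219 against 379.6 to 575), and the groups overlap for Aldh1a1 and Dhrs3.

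The largest change was that of Cyp26a1, the enzyme that clears retinoic acid. Its probe set 1419430_at read 1684, 991 and 676 on the P4 arrays, against 126, 147 and 92 on the oil arrays. Every P4 array was several times brighter than every oil array, and the P4 arrays also differed widely from each other. The means were 1117 ± 515 after P4 and 122 ± 27.6 after oil, a ratio of 9.18. On the log2 scale the change was 2.96 ± 0.30 (95% interval 2.26 to 3.67, limma adjusted p 0.00145). RNA of a whole uterine horn cannot tell a change in the number of cells of a type from a change in RNA per cell. Of 10 epithelial markers 1 was called higher, the tight junction gene Cldn3 (1.21 ± 0.12), and 0 lower, against 6.08% and 6.94% of all genes. The keratins Krt18 (-0.62 ± 0.19, limma adjusted p 0.0673) and Krt19 (-0.34 ± 0.10, 0.0721) were lower on every P4 array than on any oil array. The same held for 17.5% of all genes. With the replicate number as a block, described below, Cldn3 stayed the 1 epithelial marker called higher, against 9.29% of all genes. In that fit 3 were lower, against 11.6% of all genes, namely Krt18 (limma adjusted p 0.0310), Krt19 (0.0147) and Epcam (0.0465). The summed intensity of the 10 markers was 12411 to 18478 after P4 and 15775 to 17498 after oil, and their part in the Cyp26a1 change was not tested. With any 1 array left out the change of Cyp26a1 stayed between 2.62 and 3.27, with a limma adjusted p of at most 0.00981. Only the loss of both arrays numbered 2, among the alternatives run, took it past the threshold (3.13, adjusted p 0.0577).

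The Cyp26a1 promoter is shown because the gene with the largest change carries the kind of repeat that retinoic acid receptors bind, shared here with Rarb, a classical retinoic acid target. The sequences are RefSeq's on GRCm38.p6, each the 250 bases before the annotated start, 5′ to 3′ on the gene's strand. The first lies at chr19:37697558-37697807 on the plus strand and the second at chr14:16575477-16575726 on the minus strand. Capitals mark 2 copies of a receptor hexamer and the 5 bases between them, known as a DR5 repeat.
Cyp26a1: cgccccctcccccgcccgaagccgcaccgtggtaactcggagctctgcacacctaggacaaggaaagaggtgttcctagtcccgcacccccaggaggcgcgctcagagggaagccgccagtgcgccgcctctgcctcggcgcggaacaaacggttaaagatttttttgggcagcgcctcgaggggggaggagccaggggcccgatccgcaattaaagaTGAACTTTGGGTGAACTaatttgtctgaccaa
Rarb: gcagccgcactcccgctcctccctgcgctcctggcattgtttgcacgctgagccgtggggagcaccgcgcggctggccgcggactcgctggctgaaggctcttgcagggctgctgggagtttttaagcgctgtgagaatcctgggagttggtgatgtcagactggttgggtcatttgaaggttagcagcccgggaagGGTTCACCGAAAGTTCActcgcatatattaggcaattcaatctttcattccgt
The hexamers searched were AGGTCA, its relative AGTTCA, the form GGGTCA and lastly GGTTCA, as a pair on the same strand with 5 bases between them, on both strands. In Cyp26a1 the repeat covers bases -32 to -16 from the start and reads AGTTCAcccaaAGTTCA on the other strand, with the hexamers in capitals. In Rarb it covers bases -53 to -37 and reads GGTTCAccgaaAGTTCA. Such a repeat was found in 32 of 32851 windows of 300 bases around the starts of 27025 genes, which is 0.0974%. RefSeq windows were at hand for 6 of the 9 genes, 9 windows in all, and the repeat occurred in these 2 of them. A single hexamer of this kind occurred in 43.7% of all windows and in 3 of these 9, those of Cyp26a1 and Rarb and 1 window of Aldh1a1.

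The same windows were searched for the letters AGATAA, then AGATAG, further TGATAA and finally TGATAG, which GATA factors can bind, and for TGTTCT, a hexamer that the progesterone receptor can bind, both on either strand. The GATA letters were in 29.8% of all windows and, among the retinoic acid genes, in both windows of Aldh1a1. TGTTCT was in 19.0% of all windows and in 1 window of Dhrs3. Neither was in the Cyp26a1 window, which says only that these letters are not in those 300 bases.

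Cyp26b1, the second clearing enzyme, went the other way and by far less. Its probe set 1460011_at read 109, 122 and 127 after P4, against 175, 181 and 149.6 after oil. All P4 arrays were below all oil arrays, and the nearest values of the groups, 127 and 149.6, both came from arrays numbered 3. The means were 119 ± 9.34 after P4 and 169 ± 16.8 after oil, with a log2 fold change of -0.45 ± 0.10 (95% interval -0.69 to -0.21, limma adjusted p 0.0289). This call was lost without P4 replicate 1 or 2 or oil replicate 1 or 2 (limma adjusted p 0.0684 to 0.119), and likewise when arrays were scaled on their hybridisation controls (-0.32, 0.106).

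Among the enzymes of synthesis, the first oxidation step by Rdh10 was brighter on the P4 arrays without passing the test. Probe set 1426968_a_at read 1416, 1387 and 1444 after P4, against 753, 717 and 1311 after oil. The P4 arrays were close together, and oil replicate 3 lay close to them, far above the other oil arrays. The log2 fold change was 0.66 ± 0.21 (95% interval 0.18 to 1.14, limma adjusted p 0.0792). The second Rdh10 probe set, 1460632_at, read 885, 777 and 784 after P4 and 496, 508 and 703 after oil (0.52 ± 0.14, limma adjusted p 0.0536 over all probe sets). Both probe sets separated the groups, and both had their highest oil value on replicate 3. Without oil replicate 3 the change of Rdh10 was 0.93 (limma adjusted p 0.00222), and it passed as well with hybridisation control scaling (0.78, 0.0354) and with array weights (0.73, 0.0480). With any other single array left out Rdh10 was not called (limma adjusted p up to 0.246), and its change fell as low as 0.50. It was called in 5 of 23 alternatives.

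Aldh1a2, known as a retinaldehyde dehydrogenase of stromal and mesothelial cells in many organs, rose. It read 1952, 2399 and 3166 after P4, against 1332, 1193 and 1706 after oil. The groups did not overlap, and replicate 3 was the brightest array in each. Means of 2505 ± 614 after P4 and 1410.4 ± 265 after oil gave a ratio of 1.78 and a log2 fold change of 0.81 ± 0.19 (95% interval 0.37 to 1.25, limma adjusted p 0.0300). The change stayed between 0.63 and 0.97 with 1 array left out, but the call was lost without P4 replicate 2 or 3 or oil replicate 1 or 2 (adjusted p 0.0631 to 0.118). Of 8 stromal markers 2 were called higher, Hand2 (0.50 ± 0.10) and Hoxa11 (0.89 ± 0.08), and 0 lower, against 6.08% of all genes higher. With the replicate number as a block, 4 were higher and 0 lower, against 9.29% of all genes higher. Col1a1 (limma adjusted p 0.0247) and Col3a1 (0.0309) were the added ones. The summed intensity of the 8 markers was 41834 to 49754 after P4 and 42385 to 45251 after oil. Of 5 mesothelial markers 0 were called, against 13.0% of all genes, and 1 had an unadjusted p under 0.05, against 26.6%. Their sum was 2122 to 2288 after P4 and 2285 to 2449 after oil. Most of that sum was Wt1 (1801 to 2077), while the other mesothelial markers were dim (49.35 to 144). The part of either cell type in the Aldh1a2 change was not tested.

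Aldh1a3, a further retinaldehyde dehydrogenase, fell. Probe set 1448789_at read 156, 219 and 156 after P4, against 575, 544 and 379.6 after oil. The highest P4 value was far below the lowest oil value, which again belonged to replicate 3. The means were 177 ± 36.4 after P4 and 499 ± 105 after oil, a log2 fold change of -1.41 ± 0.18 (95% interval -1.84 to -0.99, limma adjusted p 0.00349). With any 1 array left out it ran from -1.59 to -1.30 and kept its call (adjusted p at most 0.0237); without both arrays numbered 2 it was -1.49 (adjusted p 0.0577).

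The other Aldh1a3 probe sets did not show a change of that size. Probe set 1417642_at read 134, 118 and 134 after P4, against 129, 130.3 and 135 after oil (-0.03 ± 0.09, limma adjusted p 0.916 over all probe sets). Probe set 1427395_a_at read 80.8, 88.2 and 104 after P4, against 109, 107 and 108 after oil (-0.22 ± 0.10, adjusted p 0.254). The mean of all 3 probe sets gave -0.55 for the gene (limma adjusted p 0.00646). Thus 1 of 3 probe sets was called by itself, and the size of the Aldh1a3 fall depends on the probe set chosen.

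Aldh1a1, the retinaldehyde dehydrogenase with a wide tissue range, read 2177, 2789.7 and 3387 after P4, against 1571, 1272 and 2713 after oil. The groups overlapped, because oil replicate 3 was above P4 replicate 1. Its log2 fold change was 0.64 ± 0.27 (95% interval 0.01 to 1.27, limma adjusted p 0.184) and became 0.95 without oil replicate 3 (adjusted p 0.0244). With any other single array left out, Aldh1a1 was not called (0.41 to 0.80, limma adjusted p 0.124 to 0.467). It was called in 3 of 23 alternatives. Dhrs3, the reductase that opposes Rdh10, read 370.4, 601 and 459 after P4, against 418, 498 and 559.5 after oil. These ranges overlapped almost fully, with a log2 difference of -0.06 ± 0.18 and an interval of -0.47 to 0.35 (limma adjusted p 0.886). The interval holds values as large as the change of Cyp26b1.

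Crabp2 and Rarb were about as dim as the template-free probe sets of Kdm5d (49.9 to 69.4) and Usp9y (41.5 to 75.5). Both genes were brighter on every array than any value of Eif2s3y (22.5 to 37.8) or Uty (31.6 to 49.7). Crabp2 read 67.2, 57.5 and 51.2 after P4, against 67.8, 75.5 and 86.1 after oil (-0.31 ± 0.12, limma adjusted p 0.134). Rarb read 52.2, 55.6 and 52.6 after P4, against 57.1, 65.0 and 74.4 after oil (-0.22 ± 0.10, adjusted p 0.210). In both genes every P4 array was below every oil array, with P4 replicate 1 and oil replicate 1 nearly equal for Crabp2. All 6 Rarb values and 5 of 6 Crabp2 values lay inside the 22.5 to 75.5 of the Y-linked probe sets named above. Neither gene passed the test, and its values may hold little specific signal, which was not tested.

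Over all genes, arrays with the same replicate number deviated from their groups together, but only weakly for number 2 (correlation 0.13). Among the members, Cyp26a1, Aldh1a1 and Aldh1a2 did so in numbers 1 and 3, while Cyp26b1 and Crabp2 went opposite ways there. A fit with that number as a block called more of these genes. With the block 4 genes were higher and 2 lower, against 9.29% and 11.6% of all genes (20.9% in all). The added genes were Aldh1a1 (95% interval 0.30 to 0.97, limma adjusted p 0.0199) and Rdh10 (0.30 to 1.01, adjusted p 0.0212). Set against the oil array of the same number, Aldh1a1 was higher by 0.47, 1.12 and 0.32 log2 in the 3 pairs and Rdh10 by 0.90, 0.94 and 0.14. All pairs pointed one way in both genes, with the smallest difference in pair 3. The Rdh10 groups did not overlap, so any matching of its arrays gives 1 direction. Only for Aldh1a1 could the pairs have differed in direction. The same differences were 3.58, 2.63 and 2.68 for Cyp26a1. They were 0.55, 1.0 and 0.89 for Aldh1a2. The falls were -1.78, -1.25 and -1.20 for Aldh1a3 and -0.61, -0.52 and -0.21 for Cyp26b1. The groups did not overlap in Cyp26a1, Aldh1a2, Aldh1a3 or Cyp26b1, so the direction of their pairs was fixed by that.

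**Figure D2:**
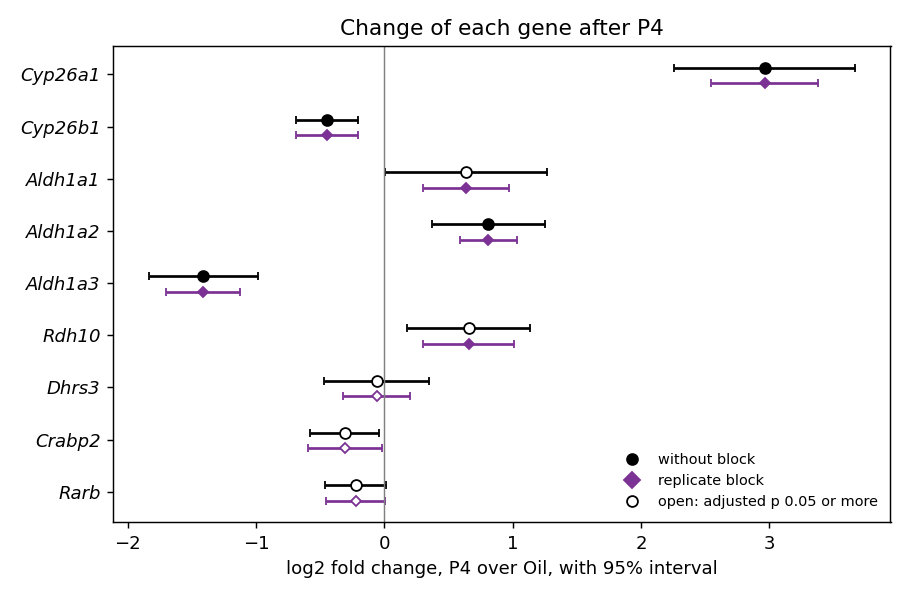
Log2 fold change of P4 over oil with its 95% interval for each retinoic acid gene, without (black circles) and with (purple diamonds) the replicate number as a block; filled symbols passed a limma adjusted p of 0.05. Cyp26a1 stands farthest to the right at 2.96, Aldh1a3 farthest to the left at -1.41, and Aldh1a1 and Rdh10 are filled only with the block.

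The spread within groups had a shape of its own. On P4 replicate 3 Cyp26a1 was 0.61 log2 below its group mean while Aldh1a1 was 0.30 and Aldh1a2 0.36 above theirs. P4 replicate 1 had the reverse, with Cyp26a1 0.68 above its mean and both Aldh1a1 and Aldh1a2 0.33 below. Deviations within a group cancel out, and P4 replicate 2 lay near these means (-0.07 for Cyp26a1, 0.03 for Aldh1a1, -0.03 for Aldh1a2). The values of P4 replicate 1 thus follow from those of replicate 3. Oil replicate 3 showed the first pattern again: Cyp26a1 was 0.33 below its group mean, while Aldh1a1 was 0.62 and Aldh1a2 0.29 above. Rdh10 was 0.55 above its mean there, but within 0.03 of it on every P4 array.

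P4 replicate 3 and oil replicate 3 also had the highest granulocyte marker sums of their groups, as given above. With the mean of these markers as a covariate, chosen after seeing the data, Cyp26a1 was 3.20 (limma adjusted p 2.36e-05), Aldh1a2 0.67 (0.00281), Aldh1a3 -1.36 (0.00164) and Cyp26b1 -0.44 (0.0285). In that fit Aldh1a1 was 0.42 (0.0522) and Rdh10 0.54 (0.0518). Of the arrays with low granulocyte sums, P4 replicate 1 read 1684 for Cyp26a1, 1952 for Aldh1a2 and 156 for Aldh1a3. Oil replicates 1 and 2, low as well, read 126 and 147 for Cyp26a1, 1332 and 1193 for Aldh1a2, and 575 and 544 for Aldh1a3.

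**Figure D3:**
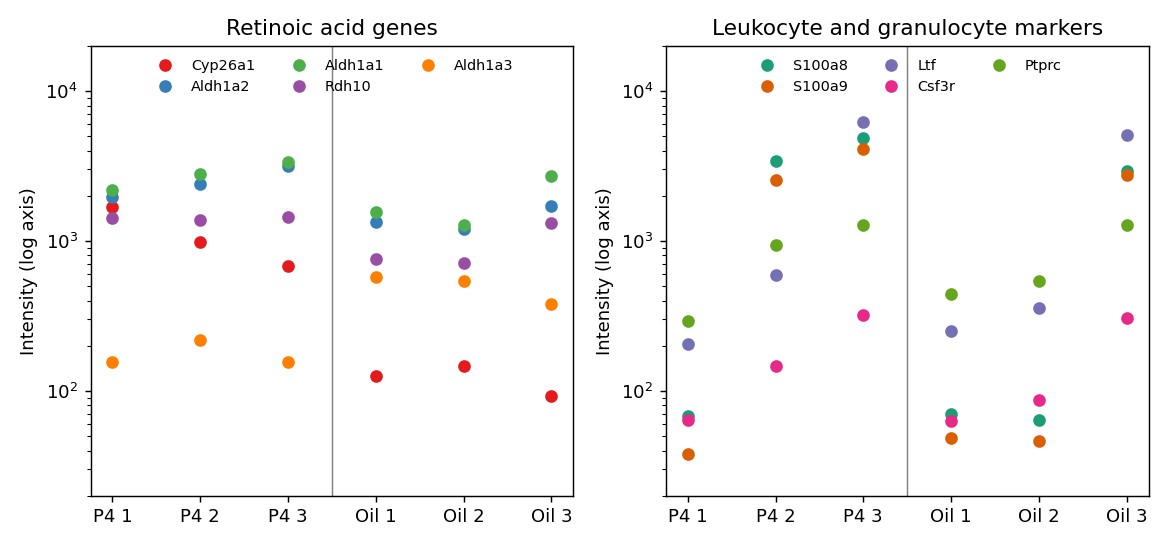
Intensity (log axis) on each of the 3 P4 and 3 oil arrays of 5 retinoic acid genes (left panel) and of leukocyte and granulocyte markers (right panel). S100a8 lies between 2950.3 and 4859.7 on P4 replicates 2 and 3 and oil replicate 3 and between 64.3 and 70.3 on the other arrays; the heights of different genes are not comparable.

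**Figure D4:**
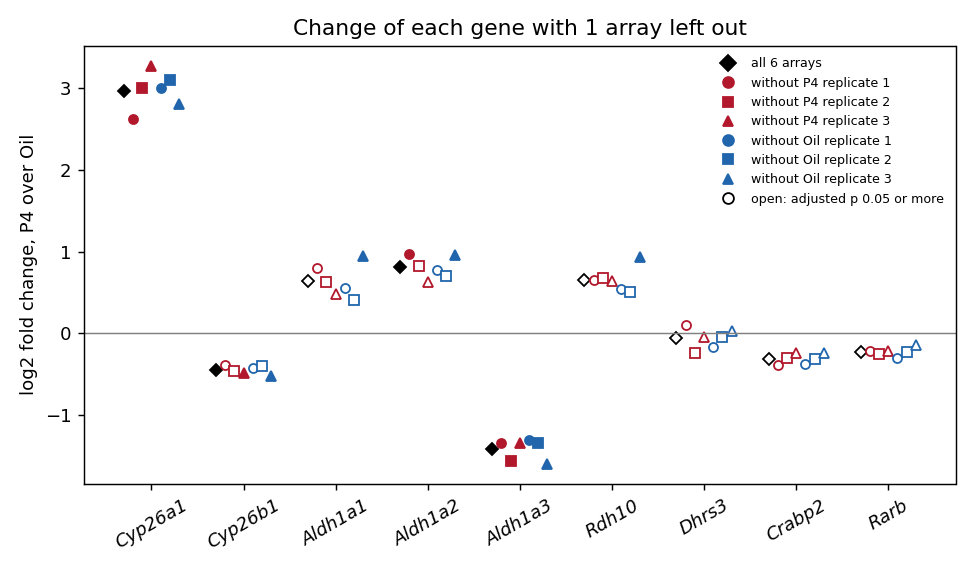
Log2 fold change of P4 over oil for each retinoic acid gene with all 6 arrays (black diamonds) and with 1 P4 (red) or 1 oil (blue) array left out; open symbols have a limma adjusted p of 0.05 or more. Cyp26a1 and Aldh1a3 are filled in all 6 such fits, while Aldh1a2 and Cyp26b1 are filled in 2 each.

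Beyond these 9 genes, 41 of 45 listed genes of retinoid uptake, storage, conversion, binding and response were measured. Of these 4 were higher and 3 lower after P4, or 17.1% against the 13.0% of all genes, and their median log2 fold change was 0.04. With the replicate block 9 of the 41 were higher and 7 lower, against the 9.29% and 11.6% of all genes given above. Scaled on the hybridisation controls, which moved every gene up by 0.13 log2, 6 were higher and 0 lower, against 1927 higher and 624 lower of all 18193 genes, so the balance of directions depends on the scaling.

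The 2 largest increases were in genes of retinol uptake and transport. Lrp2, the endocytic receptor megalin, which takes up retinol-binding protein in the kidney, read 1616, 965 and 931 after P4, against 100.5, 99.8 and 87.6 after oil (3.36 ± 0.20, limma adjusted p 0.000421). A second Lrp2 probe set changed by 3.18 (adjusted p 0.000231 over all probe sets) and the remaining one by 0.36 (0.0828). Ttr, the plasma carrier that holds retinol-binding protein, read 474, 509 and 441 after P4, against 80.4, 54.8 and 243 after oil (2.02 ± 0.41, adjusted p 0.0177). Its 4 probe sets were all higher, by 0.94 to 2.02. The Ttr call was lost without P4 replicate 2, oil replicate 1 or oil replicate 2 (adjusted p up to 0.0691). Rbp4, the retinol-binding protein itself, read 331, 340.1 and 612 after P4, against 182, 235 and 387 after oil (0.65 ± 0.30, adjusted p 0.222). The retinol channel Stra6 read 253, 318 and 571 after P4, against 204, 183 and 464 after oil (0.44 ± 0.38, adjusted p 0.547). With the block Rbp4 (limma adjusted p 0.00274) and Stra6 (0.0281) were called higher, and both were brightest on replicate 3 of each group.

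Among enzymes, Adh5, a broadly expressed alcohol dehydrogenase that acts mainly on formaldehyde adducts, read 5314, 4164 and 3973 after P4, against 2418, 2381 and 2327 after oil (0.90 ± 0.11, limma adjusted p 0.00276). Its second probe set changed by -0.066 (adjusted p 0.830 over all probe sets), and the mean of both gave 0.42 for the gene (adjusted p 0.0453), so the size rests on the first. Adh1, which oxidises retinol, read 1543, 2596 and 1752 after P4 and 1886, 1915 and 1736 after oil (0.05 ± 0.17). Dhrs4, a retinaldehyde reductase, averaged 465 ± 59.0 after P4 and 318 ± 45.1 after oil (0.53 ± 0.13, adjusted p 0.0338), with its second probe set at 0.43 (0.0919 over all probe sets). Rdh14, a relative of the retinol dehydrogenases, averaged 407 ± 10.4 after P4 and 540.1 ± 50.3 after oil (-0.39 ± 0.09, adjusted p 0.0272), and its other probe sets, at -0.23 (0.315) and -0.28 (0.192), were not called. The mean of its probe sets gave -0.30 (limma adjusted p 0.0569). The calls of Dhrs4 and Rdh14 were lost without any of P4 replicate 2, P4 replicate 3, oil replicate 1 or oil replicate 2, and that of Dhrs4 also without P4 replicate 1 (adjusted p up to 0.129). The retinol dehydrogenases Rdh9 (-0.34 ± 0.15, limma adjusted p 0.209) and Rdh11 (-0.36 ± 0.11, 0.0680) did not pass, and were called lower with the block (0.0237 for Rdh9 and 0.0235 for Rdh11).

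The carotenoid-cleaving enzyme Bco2 averaged 51.9 ± 3.54 after P4 and 76.0 ± 10.4 after oil (-0.44 ± 0.11, limma adjusted p 0.0354), near the unspecific range. Its relative Bco1 read 43.4 to 55.0 on all arrays. Lipe, the hormone-sensitive lipase that can split retinol esters, averaged 105 ± 5.98 after P4 and 137 ± 9.36 after oil (-0.34 ± 0.09, adjusted p 0.0484). Neither call was stable: that of Lipe was lost in all 6 fits with 1 array removed (adjusted p 0.0584 to 0.170) and with the mean of its probe sets (-0.25, 0.120), and that of Bco2 without any array but oil replicate 3 (up to 0.113). Of 3 adipocyte markers measured, 0 were called by limma and 1, Adipoq, had an unadjusted p under 0.05, against 13.0% and 26.6% of all genes. Adipoq read 92, 200.4 and 52.1 after P4, against 363, 349 and 187 after oil, so the groups overlapped (-1.38 ± 0.41, adjusted p 0.0672, and 0.00273 with the block). Cidec averaged 109 ± 28.5 after P4 and 102 ± 6.64 after oil, and Lep read 30.9 to 40.5 on all arrays. The part of fat in the Lipe values was not tested. Dgat1, which can esterify retinol, averaged 326 ± 32.4 after P4 and 367 ± 29.8 after oil (adjusted p 0.390).

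No retinoid receptor and no other binding protein passed the test. Rarg, a retinoic acid receptor, read 699, 578 and 579 after P4, against 824, 793 and 694 after oil (-0.31 ± 0.11, limma adjusted p 0.104, and 0.0296 with the block). Rxrb, a partner receptor, averaged 595 ± 44.6 after P4 and 644 ± 28.9 after oil (-0.11 ± 0.09, adjusted p 0.486). Fabp5, which binds fatty acids and can carry retinoic acid, averaged 529.6 ± 164 after P4 and 349 ± 143 after oil (adjusted p 0.259). Rbp7, a cellular retinol-binding protein, averaged 181 ± 10.4 after P4 and 131 ± 26.3 after oil (0.44 ± 0.14, adjusted p 0.0768, and 0.0289 with the block).

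Among 6 measured genes known to respond to retinoic acid in other cells, 0 passed limma, against 13.0% of all genes, and 2 had an unadjusted p under 0.05, close to the 26.6% of all genes. Of these, Hoxb1 (17.75 to 30.1), Cdx1 (32.2 to 48.65) and Rarres1 (65.5 to 92.6) read in or near the unspecific range. Their lack of a call therefore says little. The list leaves out the members, Cyp26a1 and Rarb among them. Tgm2, tissue transglutaminase, read 4802, 6414 and 7227 after P4, against 4555, 3962 and 5252 after oil (0.41 ± 0.16, limma adjusted p 0.147). Rarres2, the precursor of chemerin, averaged 2109 ± 556 after P4 and 2716 ± 328 after oil (-0.39 ± 0.18, adjusted p 0.231). Nrip1, a corepressor of nuclear receptors, averaged 1132 ± 126 after P4 and 914 ± 22.5 after oil (0.30 ± 0.09, adjusted p 0.0763). With the block Tgm2 (0.0375) and Nrip1 (0.0336) were called higher and Rarres2 (0.0247) lower. Rdh9, Rdh11, Stra6 and Nrip1 were named after their values were seen.

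**Figure D5:**
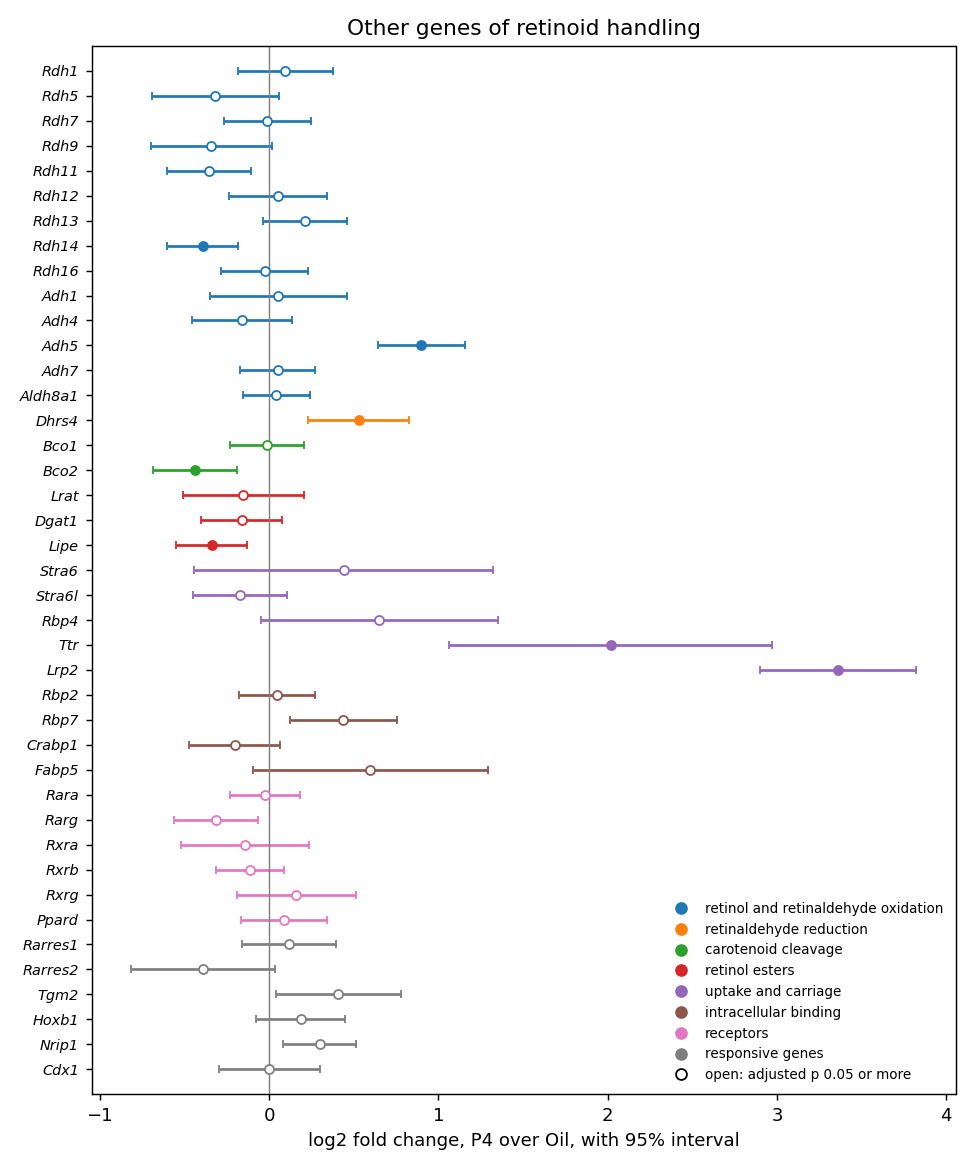
Log2 fold change of P4 over oil with its 95% interval for 41 other genes of retinoid handling, coloured by role; filled symbols passed a limma adjusted p of 0.05. Lrp2 (3.36) and Ttr (2.02) lie far to the right of the other genes, and none of the receptors or responsive genes is filled.

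Genes whose array-to-array pattern lay closest to that of each called gene were found by the root mean square difference of mean-centred log2 values over the 6 arrays, among the brighter 9096 or 9097 genes. For Cyp26a1 the nearest was Lrp2 (0.29 log2), followed by Cwh43 (0.35) and Jam2 (0.41). Cyp26b1 lay closest to Notch2 (0.03), Vamp4 (0.04) and Eola1 (0.05). Aldh1a2 was nearest to Rcc1 (0.09), Ran (0.10) and Lrrc59 (0.10), and Aldh1a3 to Rin2 (0.16), Ypel3 (0.19) and Trim45 (0.19). Smaller differences go with smaller changes, so these distances are not comparable between genes. Lrp2 and Cwh43 shared with Cyp26a1 the brightest value on P4 replicate 1 and the dimmest oil value on replicate 3, and Jam2 shared only the former. Genes picked for a near pattern tend to share such an order.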

How the data were processed

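Total RNA of 6 uterine horn samples was labelled with biotin as cRNA by the standard Affymetrix protocol, per the labels' protocols. Each array's deposited table holds a linear intensity for every probe set; the summarisation and scaling behind it are not given in the sources used here. Of 45101 probe sets 64 are controls and 34945 carry 1 gene symbol in the platform annotation, of which 34741 matched a RefSeq gene table (GRCm38.p6) that changed 0 symbols. Array medians differed by 0.06 log2, under the 0.5 that would have called for quantile normalization. The test of P4 over oil used limma 3.58.1 (R 4.3.3, eBayes with trend) across 18193 genes, and over all probe sets for single probe sets, with Benjamini-Hochberg adjustment and a threshold of 0.05; the test was checked on simulated data. The number of arrays limits the precision.

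The genes named are the 9 members, called or bright genes of a retinoid list, and for each called member the 3 nearest patterns. Members and lists were chosen with earlier results of these data known. Replicate numbers come from the sample titles. Same-numbered arrays deviated together from their groups (correlations 0.53, 0.13 and 0.64, each over the limit of 0.1). P4 replicate 1 with oil replicate 2 gave 0.29, more than the 0.13 of the arrays numbered 2, and the other cross-number correlations were negative. The numbers are treated as pairs, though the labels state no pairing and the arrays numbered 2 bear it out least. Of 23 alternatives, 3 were chosen after seeing the data. Figures were drawn with matplotlib 3.10.9.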

Additional observations from a re-analysis of the deposited data

How the results depend on the processing

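Over 202 refits of single members the direction was kept except for Dhrs3, which was never called: it was 0.066 with scaling to the hybridisation controls, 0.033 with array weights, 0.047 without both arrays numbered 3, and -0.24 to 0.10 with 1 array left out. The replicate block gave 3801 changed genes, all 2368 calls made without it among them in the same direction, 4 members higher, 5 member probe sets higher, and 9 other retinoid genes higher and 7 lower. It ended none of the calls of members. Scaling to the hybridisation controls, which were 0.13 log2 lower on P4 arrays, turned the split of all calls to 1927 higher and 624 lower (75.5% higher, against 46.7%), and gave 4 member probe sets higher and 1 lower, 1 member lower and 0 other retinoid genes lower. Without the dimmest 50% of genes, among which was Cyp26b1, 1 member and 1 other retinoid gene were lower; the mean of all probe sets of a gene also left 1 other retinoid gene lower.

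With 1 array left out, 993 to 2302 genes changed, with 1 to 4 members higher and 1 to 2 lower, 1 to 5 member probe sets higher and 1 to 2 lower, and 2 to 4 other retinoid genes higher and 0 to 3 lower. Without both arrays numbered 2, 171 genes changed, 0 members in either direction, 1 member probe set each way, and 1 other retinoid gene higher and 0 lower. Without both numbered 1, added once the data had been seen, there were 1054 genes, 1 member and 1 member probe set each way, and 2 other retinoid genes higher and 0 lower. Without both numbered 3, likewise added then, there were 1434 genes, 4 members and 5 member probe sets higher, and 0 other retinoid genes lower. The granulocyte covariate, also added then, gave 7 other retinoid genes higher. The fits that leave out arrays use fewer samples; for the other settings the cause was not tested. The probe sets of Crabp2 and Rarb were about as dim as those of Kdm5d and Usp9y, and brighter than those of Eif2s3y and Uty, all without a template. How much of the Crabp2 and Rarb signal is specific was not tested.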
